A study of Mus musculus with 6 samples.

Results

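The genes described here encode 3 beta subunits of the sodium pump (Atp1b1, Atp1b2 and Atp1b3) and the 4 plasma membrane calcium pumps (Atp2b1, Atp2b2, Atp2b3 and Atp2b4), 7 of the 18194 genes named on the array. Members were defined by gene symbol, and the set was chosen with earlier results of these data known. Each of 17 probe sets names a single member and no other gene, and that with the highest mean stands for its gene. Of the 7 genes, 6 lay above the filter on dim probe sets (a mean of 5.57 log2 units), while Atp2b4, with a single probe set, lay below it. Transcript levels came from 6 Affymetrix expression arrays for the mouse genome, 1 per auditory nucleus and age. The P14 arrays held tissue of postnatal day 14 from MNTB (medial nucleus of the trapezoid body), VCN (ventral cochlear nucleus) and LSO (lateral superior olive), each array a pool of 3 animals. P3 arrays held the same nuclei at postnatal day 3, each a pool of 6 animals. All animals were male mice of the strain C57BL/6J.

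The sodium pump exports sodium and imports potassium at the cost of ATP, and thereby restores the gradients on which action potentials run. Its beta subunit, a glycoprotein, is needed for the pump to reach the membrane and sets part of its affinity for potassium. Plasma membrane calcium pumps export calcium from the cytoplasm and are stimulated by calmodulin. Neurons of the auditory brainstem fire at high rates once hearing has begun, and both pumps are among the transporters that clear the ions entering during such activity.

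Promoter sequences from RefSeq (build GRCm38.p6, 250 bases before to 50 bases after an annotated start) were held for 5 of the 7 genes, with 9 starts. They are shown for Atp1b1 and Atp1b3, which were higher at P14, and for Atp2b1, which was lower, so that genes of opposite direction can be read side by side; of a gene with several starts, the outermost is given. Capitals mark every match, on either strand, to the GC box GGGCGG, the CCAAT box CCAAT, the TATA box TATAAA or the E-box CACGTG.
Atp1b1, chr1:164458306-164458605, minus strand: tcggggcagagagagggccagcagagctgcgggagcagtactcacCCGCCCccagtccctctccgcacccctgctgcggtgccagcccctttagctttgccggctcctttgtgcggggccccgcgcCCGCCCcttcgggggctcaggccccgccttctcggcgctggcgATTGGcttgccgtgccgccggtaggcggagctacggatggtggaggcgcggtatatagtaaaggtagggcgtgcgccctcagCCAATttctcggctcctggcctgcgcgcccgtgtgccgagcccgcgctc
Atp1b3, chr9:96364382-96364681, minus strand: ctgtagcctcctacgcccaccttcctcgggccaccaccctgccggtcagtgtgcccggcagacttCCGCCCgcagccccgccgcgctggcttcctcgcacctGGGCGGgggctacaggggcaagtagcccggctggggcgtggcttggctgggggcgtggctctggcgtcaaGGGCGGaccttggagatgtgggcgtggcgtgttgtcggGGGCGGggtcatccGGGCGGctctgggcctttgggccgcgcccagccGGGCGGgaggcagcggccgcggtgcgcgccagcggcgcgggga
Atp2b1, chr10:98914392-98914691, plus strand: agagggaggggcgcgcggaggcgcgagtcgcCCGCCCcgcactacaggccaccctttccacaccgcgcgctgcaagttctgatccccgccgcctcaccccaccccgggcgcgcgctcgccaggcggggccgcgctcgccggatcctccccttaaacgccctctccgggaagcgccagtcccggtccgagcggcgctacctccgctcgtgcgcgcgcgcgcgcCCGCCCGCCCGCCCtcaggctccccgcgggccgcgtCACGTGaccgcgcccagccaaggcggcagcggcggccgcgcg

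All 3 windows were rich in G and C, at 71% for Atp1b1, 76% for Atp1b3 and 79.3% for Atp2b1. The window of Atp2b1 held 54 CG dinucleotides, that of Atp1b3 34 and that of Atp1b1 31, against a median of 7 over the 32851 RefSeq windows. The GC box occurred 2 times for Atp1b1, 6 times for Atp1b3 and 4 times for Atp2b1, where some matches overlap, and in 35.7% of all windows. Atp1b1 held 2 CCAAT boxes (37.4% of all windows hold one), and Atp2b1 held 1 E-box (7.15%). No TATAAA was found in these windows, and 13.6% of all windows hold it. The window of Atp2b4, at 47.7% G and C with 4 CG dinucleotides, held none of the 4 motifs. Such matches are a description of letters, and GC boxes stood both in windows of genes that were higher at P14 and in that of Atp2b1.

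Array medians lay between 6.27 and 6.31 log2 units. The labelled nuclei were checked against genes known from them. Slc6a5, the glycine transporter of inhibitory neurons, was at 13.02 in MNTB and 12.22 in LSO at P14, against 10.74 in VCN. At P3 it was at 12.50 in MNTB, but LSO (11.30) lay close to VCN (10.89). Slc17a6 was highest and Slc32a1 lowest in VCN at both ages. The MNTB markers Calb1, Esrrb and Otp were highest in MNTB at both ages. Esrrb, however, set MNTB (8.54) little apart from VCN (7.93) at P14, with LSO at 6.24. The vesicular glutamate transporter gene Slc17a7 stood at 8.50 in VCN at P14 but at 4.83 there at P3, just above the range of unspiked control probe sets (2.84 to 4.42). No combination of nucleus and age was repeated, so the error of every test below starts from how far changes with age varied over nuclei. That spread, on 2 residual degrees of freedom, was moderated with 3.95 from a prior fitted over all tested genes. A standard error given below can thus be smaller or larger than the 3 nuclei alone would give. The p-values measure repetition over nuclei and not over animals. In tissue pieces, fewer cells of a type and less RNA per cell cannot be told apart. Signal of Gapdh at its 3' end exceeded that at its 5' end (a common check of RNA integrity) by 1.06 to 1.11 at P14 and 1.21 to 1.41 at P3. Its part in the changes with age was not tested.

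The first comparison asks how the pump genes differed between P14, after the onset of hearing, and P3, before it. All 3 sodium pump beta genes and the calcium pump gene Atp2b3 were higher at P14, whereas the calcium pump gene Atp2b1 was lower. Atp1b2 rose by 0.66 ± 0.06 log2 units (moderated standard error, 3 nuclei), a 1.58-fold difference, and Atp2b1 fell by 0.65 ± 0.07, a 1.57-fold difference. Values were fitted with limma with age and nucleus as terms, and p-values were adjusted over all 12959 tested genes. Of the 6 tested pump genes 5 passed the threshold of 0.05, 4 higher and 1 lower, where 41.0% of all tested genes passed, 23.4% higher and 17.7% lower. The median change of the 6 was 0.29, against 0.03 over all tested genes. The number that passed was 3 without the MNTB or the VCN array of P14, 2 without the MNTB array of P3, 3 without the VCN array of P3, and 3 without an intensity trend in the variance. Over all tested genes, 3145 to 4712 passed with 1 array left out and 5005 without the trend, against 5318 with all arrays and the trend. Since either array of a nucleus, once left out, takes that nucleus from the age difference, the 6 such fits hold only 1 age difference per nucleus left out.

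**Figure D1:**
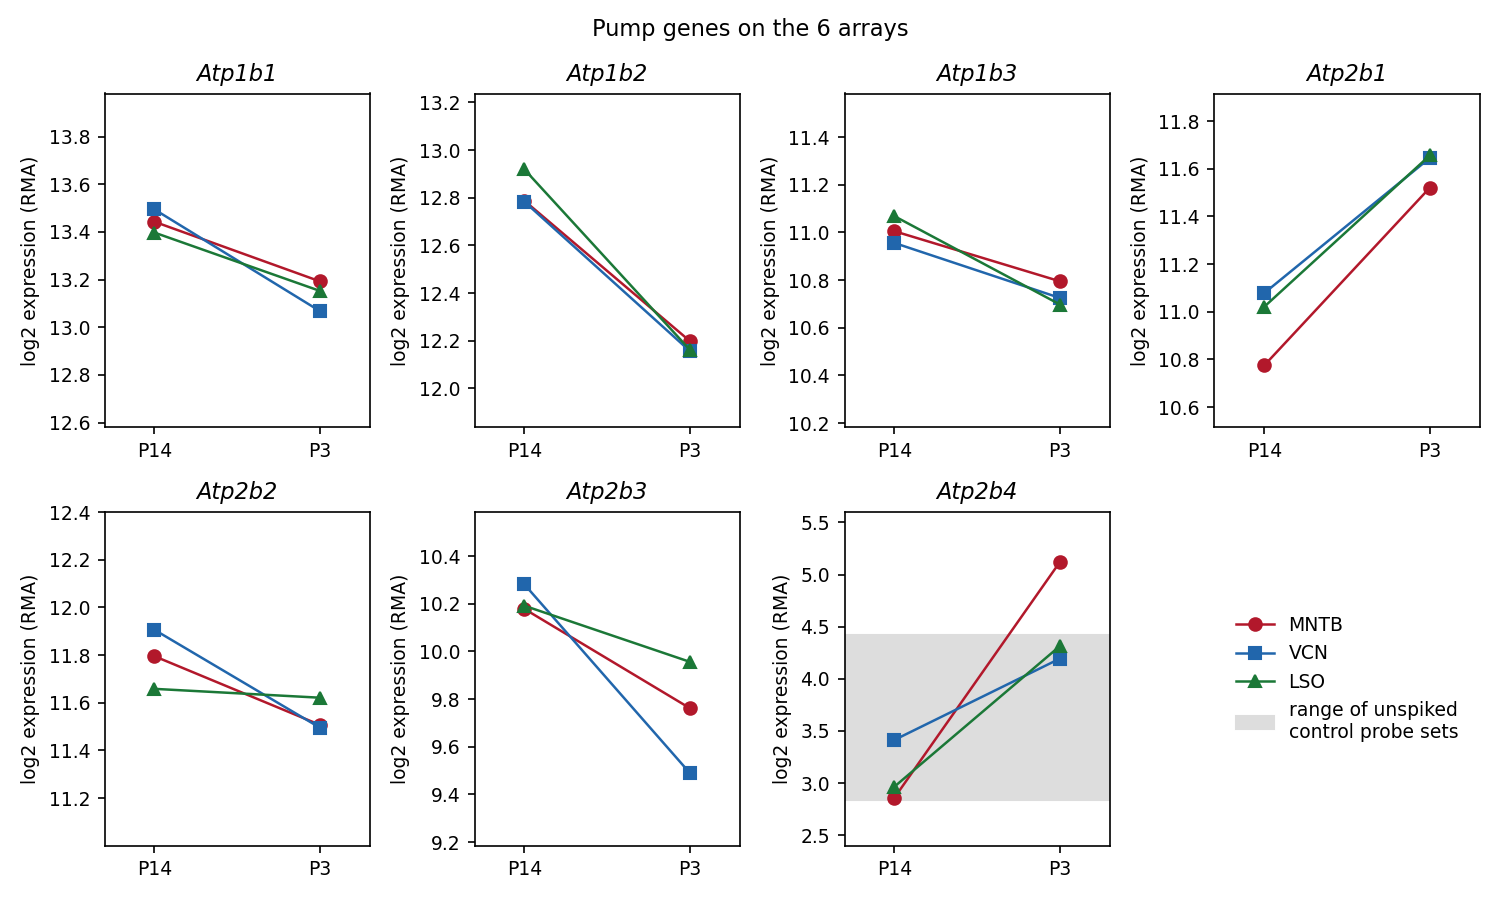
Log2 expression (RMA) of each pump gene on the 6 arrays, with P14 left of P3 and 1 line per nucleus; the first 6 panels span the same height, and grey in the Atp2b4 panel is the range of unspiked control probe sets. Points at P14 lie above those at P3 for Atp1b1, Atp1b2, Atp1b3, Atp2b2 and Atp2b3 and below them for Atp2b1, with 1 P14 value of Atp2b2 only 0.04 above the highest P3 value.

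Atp1b1 encodes the main beta subunit of neurons. It was at 13.44 in MNTB, 13.49 in VCN and 13.40 in LSO at P14, against 13.19 in MNTB, 13.07 in VCN and 13.15 in LSO at P3. Every P14 array was above every P3 array, with VCN highest at P14 and lowest at P3. The means were 13.44 ± 0.05 at P14 and 13.14 ± 0.06 at P3 (SD, n = 3 nuclei), and the change was 0.31 ± 0.06 (adjusted p = 0.00784, limma). The probe sets of Atp1b1 differed in size: 3 of the other 4 gave 0.40, 0.42 and 0.89 and passed (adjusted p = 0.0166, 0.0126 and 0.00147). The dimmest, near the filter at 5.87 at both ages, gave 0.01 (adjusted p = 0.976). Without the MNTB array of P3 the change was 0.34 and did not pass (adjusted p = 0.0528).

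Atp1b2 encodes the beta subunit also known as the adhesion molecule on glia, which astrocytes carry and which binds neurons to them. Its values at P14 were 12.79 in MNTB, 12.78 in VCN and 12.92 in LSO, against 12.20 in MNTB, 12.16 in VCN and 12.16 in LSO at P3. The age groups stood 0.59 apart, the widest gap among the beta genes, and the 3 nuclei of P3 lay within a few hundredths of each other. The change was 0.66 ± 0.06 (adjusted p = 0.000847), larger in size than that of 77.9% of tested genes. A second probe set gave 0.76 (adjusted p = 0.000894), with 0.73 in MNTB, 0.75 in VCN and 0.81 in LSO. Atp1b2 passed in all 6 fits with 1 array left out. Among 8 astrocyte genes, 4 were higher at P14, 2 lower and 2 did not pass, where 23.4% of all tested genes were higher and 17.7% lower. The summed level of the 8 was 14.81 to 14.98 log2 units at P14 and 14.41 to 14.59 at P3. The glutamate transporter gene Slc1a2 differed by 0.79 and the connexin gene Gjb6 by 3.49, whereas the glutamate transporter gene Slc1a3 differed by -0.81. The part of astrocyte content in the rise of Atp1b2 was not tested.

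Atp1b3 encodes a beta subunit found in many tissues. It stood at 11.01 in MNTB, 10.96 in VCN and 11.07 in LSO at P14, and at 10.79 in MNTB, 10.72 in VCN and 10.70 in LSO at P3. Its groups did not overlap, and its change, 0.27 ± 0.08 (adjusted p = 0.0325), was the smallest of the 3 beta genes. The call rested on all arrays: it was lost in each of the 6 fits with 1 array left out (0.22 to 0.30, adjusted p = 0.0516 to 0.142) and with another round of quantile normalization (0.23, adjusted p = 0.0577). The gene has 1 probe set. Atp1b1 and Atp1b3 also fell short of the threshold without an intensity trend in the variance (adjusted p = 0.0579 and 0.0762).

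Atp2b1 encodes the calcium pump found in nearly all cells. Its values at P14 were 10.77 in MNTB, 11.08 in VCN and 11.02 in LSO, against 11.52 in MNTB, 11.65 in VCN and 11.66 in LSO at P3. All P14 arrays lay at least 0.44 below all P3 arrays, and MNTB was the lowest nucleus at both ages. The change was -0.65 ± 0.07 (adjusted p = 0.0015), larger in size than that of 77.4% of tested genes. The other probe sets gave -0.88 (adjusted p = 0.00114) and -0.63 (adjusted p = 0.00788), so that 3 of 3 were lower in every nucleus. Atp2b1 passed in all 6 fits with 1 array left out (-0.69 to -0.60).

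Atp2b2 encodes the fast calcium pump of hair cell stereocilia and cerebellar neurons, and loss of it deafens mice. It was at 11.80 in MNTB, 11.91 in VCN and 11.66 in LSO at P14, against 11.51 in MNTB, 11.49 in VCN and 11.62 in LSO at P3. The groups just failed to overlap, and LSO differed by only 0.04 between the ages. Its mean difference of 0.25 ± 0.09 did not pass (adjusted p = 0.0691), with a 95% interval of 0.03 to 0.46. The call turned with the data used: without the LSO array of P14 the difference was 0.35 (adjusted p = 0.0346), without that of P3 it was 0.35 (adjusted p = 0.0367), and with nucleus left out of the model it passed (adjusted p = 0.0408). Without either VCN array it was 0.16 (adjusted p = 0.209), and without either MNTB array it was 0.22 (adjusted p up to 0.261). A second probe set gave 0.49 and passed (adjusted p = 0.0335), with 0.87 in VCN, 0.32 in MNTB and 0.27 in LSO. The third gave 0.29 and did not (adjusted p = 0.13), with 0.63 in VCN, 0.22 in LSO and 0.01 in MNTB.

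Atp2b3 encodes another fast calcium pump, found largely in neurons. It reached 10.18 in MNTB, 10.28 in VCN and 10.19 in LSO at P14, against 9.76 in MNTB, 9.49 in VCN and 9.96 in LSO at P3. The P14 arrays were close together (SD 0.06), and the P3 arrays were spread more widely (SD 0.23), with VCN lowest. The change was 0.48 ± 0.12 (adjusted p = 0.026), made up of 0.79 in VCN, 0.42 in MNTB and 0.24 in LSO. It did not pass without the MNTB array of P14 (0.51, adjusted p = 0.0855) or of P3 (0.51, adjusted p = 0.0856), nor without the VCN array of P14 (0.33, adjusted p = 0.0595) or of P3 (0.33, adjusted p = 0.0563). Its second probe set, at a mean of 6.76 at P14 and 6.59 at P3, gave 0.17 (adjusted p = 0.444), and the median of the pair gave 0.33 (adjusted p = 0.111).

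Atp2b4 encodes a calcium pump of many tissues. Its probe set was at 2.86 in MNTB, 3.41 in VCN and 2.96 in LSO at P14, against 5.12 in MNTB, 4.19 in VCN and 4.32 in LSO at P3. All P14 values, and those of VCN and LSO at P3, lay within the range of unspiked control probe sets, so that MNTB at P3 alone rose above it. No difference between the ages is given for that reason.

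**Figure D2:**
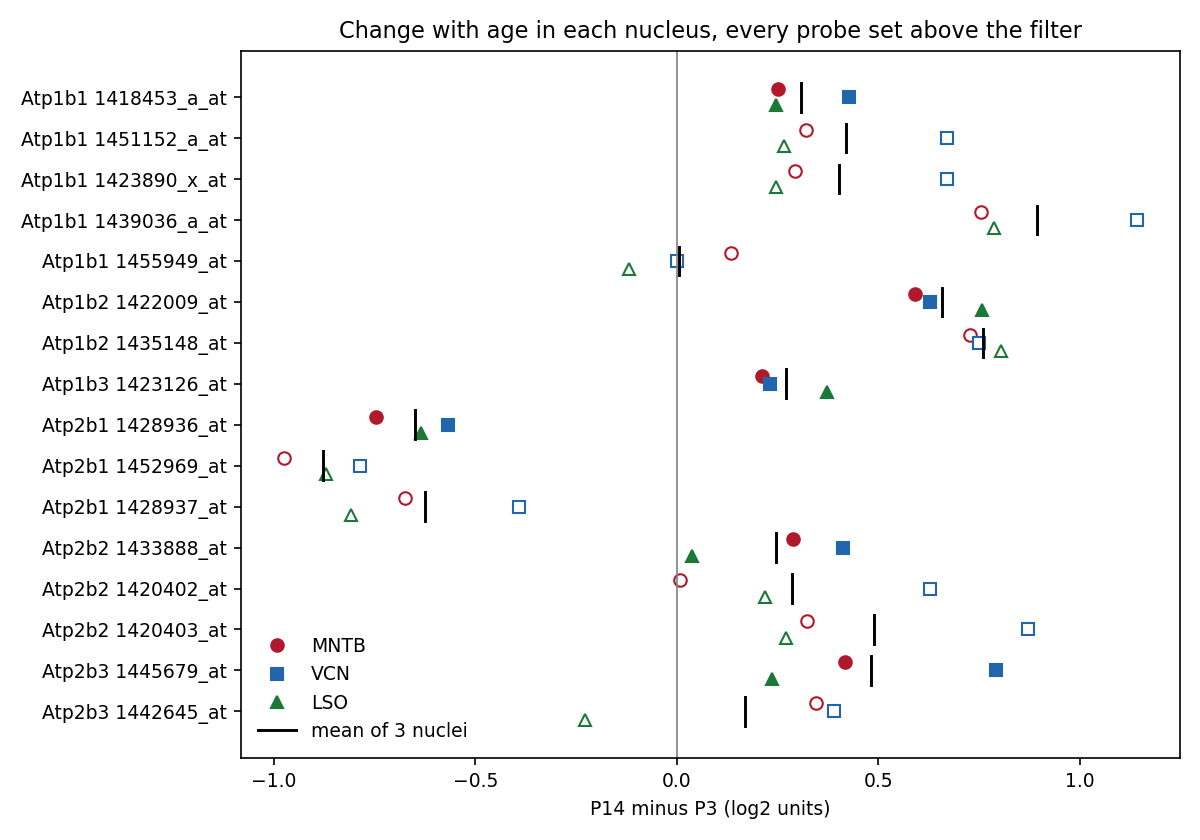
Difference P14 minus P3 in log2 units for each probe set above the filter (rows, with gene and probe set name), with 1 symbol per nucleus and a black bar for the mean of 3 nuclei; filled symbols are the probe sets used for the gene. All 3 rows of Atp2b1 lie left of 0, and the rows of Atp1b2 right of 0 between 0.59 and 0.81.

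Over the 10 other probe sets, all had a mean change of the same sign as the one used for their gene. That mean was only 0.01 for the dimmest Atp1b1 probe set, and the second Atp2b3 probe set was at -0.23 in LSO. Of the 10, 7 passed, 5 higher and 2 lower, where 41.0% of all tested genes passed, 23.4% higher and 17.7% lower. They read the same 6 arrays and are not repeats. P14 and P3 arrays did not overlap for all 6 tested genes, 5 higher and 1 lower, where this held for 53.6% of all tested genes, 30.3% higher and 23.3% lower. Within the calcium pump family the changes were unequal on every nucleus: the change of Atp2b2 exceeded that of Atp2b1 by 1.04 log2 units in MNTB, 0.98 in VCN and 0.67 in LSO. For Atp2b3 it exceeded that of Atp2b1 by 1.16 in MNTB, 1.36 in VCN and 0.87 in LSO. These are differences between changes of separate probe sets, and they say nothing of how much of each pump is present.

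VCN showed the widest change of Atp1b1, Atp2b2 and Atp2b3, at 0.43, 0.41 and 0.79, against 0.25, 0.29 and 0.42 in MNTB and 0.25, 0.04 and 0.24 in LSO. With 1 array per nucleus and age, a difference between nuclei in the change with age could not be tested. Some genes listed as markers of neighbouring tissue were high on the VCN arrays, and others were not. The summed level of 4 cerebellar genes (Cbln3, Gabra6 and Neurod1 of granule cells and Pcp2 of Purkinje cells) was 10.35 in VCN at P14 and 10.13 in VCN at P3, against 7.52 to 8.46 elsewhere. At P14 Cbln3 (8.54), Gabra6 (7.97) and Neurod1 (8.97) were highest in VCN, whereas Pcp2 was lowest there (7.45, against 7.77 in MNTB and 7.80 in LSO). At P3 the VCN sum rested on Neurod1 (9.90), with Gabra6 in the range of unspiked controls (3.61) and Cbln3 at 5.27 in VCN, against 5.13 in MNTB and 4.17 in LSO. The sum of 7 choroid plexus genes was 12.65 in VCN at P14 and 9.86 in VCN at P3, against 7.97 to 8.14 elsewhere, and 6 of the 7 lay below the filter. The transthyretin gene Ttr led the sum at P14, at 12.58 in VCN, but at P3 it was at 6.93 in VCN, against 6.61 in MNTB and 6.71 in LSO. Otx2, a transcription factor gene, led it at P3, at 9.34 in VCN, against 3.04 in MNTB and 3.05 in LSO. Whether such RNA came from neighbouring tissue or from VCN itself was not tested, nor was its part in the VCN values of the pump genes. Without the VCN array of P14 the P14 minus P3 difference was 0.25 for Atp1b1 (adjusted p = 0.0143), 0.16 for Atp2b2 (adjusted p = 0.209) and 0.33 for Atp2b3 (adjusted p = 0.0595), so that of Atp1b1 and Atp2b3, both called with all arrays, Atp1b1 alone passed.

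The second comparison asks whether the pump genes differed between nuclei, with age in the model. None of the 6 passed in any contrast, by limma with adjustment over all tested genes, where 0.162% of tested genes passed for MNTB minus LSO, 0.602% for MNTB minus VCN and 0.370% for VCN minus LSO. The contrasts share arrays, and each rests on 2 ages. Before adjustment 1 of the 6, Atp2b1 for MNTB minus VCN, had a p under 0.05, as did 9.53% of all tested genes in that contrast. Atp2b1 had a fitted difference of -0.21 for MNTB minus VCN (adjusted p = 0.523), with -0.30 at P14 and -0.12 at P3, and of -0.19 for MNTB minus LSO (adjusted p = 0.791). MNTB had the lowest value at both ages, and VCN and LSO lay within 0.06 of each other at each.

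The other genes had fitted differences between nuclei, averaged over both ages, from -0.19 to 0.08 log2 units. Such an average can hide opposite values: VCN minus LSO of Atp2b3 was 0.09 at P14 and -0.47 at P3. For Atp1b2, the 95% intervals were -0.22 to 0.13 for MNTB minus LSO, -0.15 to 0.20 for MNTB minus VCN and -0.25 to 0.11 for VCN minus LSO. They were wider for Atp2b3, at -0.48 to 0.27, -0.29 to 0.46 and -0.56 to 0.19 in the same order. Such intervals do not show that the nuclei are alike. At P14 the order of levels was VCN, MNTB, LSO for Atp1b1 and Atp2b2, and LSO, MNTB, VCN for Atp1b2 and Atp1b3, with neighbours at most 0.14 apart; none of these 4 genes had the same order at P3.

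**Figure D3:**
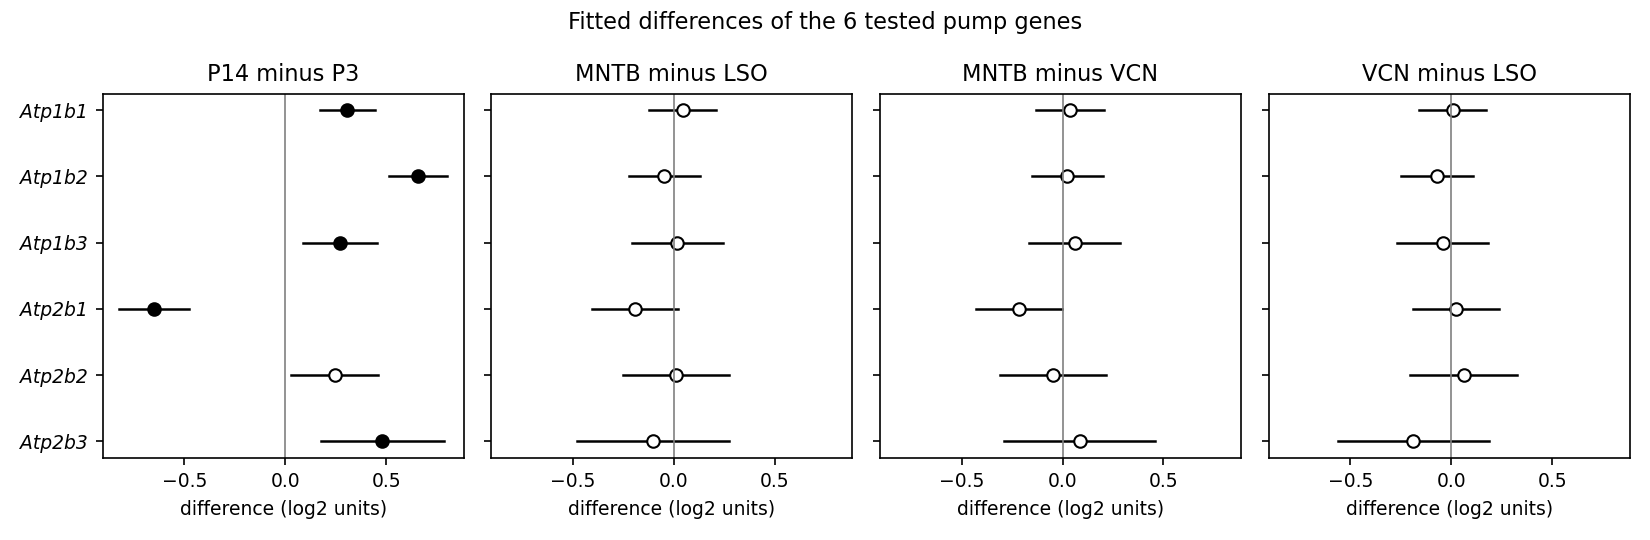
Fitted differences in log2 units (horizontal axis) of the 6 tested pump genes for age and for 3 contrasts of nuclei, with bars for the 95% interval; filled circles passed the adjusted threshold. In the age panel 5 circles are filled, and none is in the panels of nuclei.

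Genes that act beside the pumps were taken from 4 lists. The counts of each list stand beside 41.0% of all tested genes that passed for age, 23.4% higher and 17.7% lower. In the list of sodium pump partners, 8 genes were tested, of which 3 were higher at P14, 2 lower and 3 did not pass, with a median of 0.07. FXYD proteins bind the pump and tune its ion affinity. Fxyd1, phospholemman, rose by 1.07 ± 0.16 (adjusted p = 0.00407) and Fxyd5 by 0.54 ± 0.13 (adjusted p = 0.0188). Fxyd6, also called phosphohippolin, fell by 1.62 ± 0.14 (adjusted p = 0.000847), with values of 8.54 in MNTB, 7.96 in VCN and 8.98 in LSO at P14, against 10.02 in MNTB, 9.97 in VCN and 10.36 in LSO at P3. The brain member Fxyd7 fell by 1.34 ± 0.17 (adjusted p = 0.0024), though not with nucleus left out of the model (adjusted p = 0.0524). Nkain2, named for its interaction with the pump, rose by 1.43 ± 0.18 (adjusted p = 0.00248). Fxyd5 did not pass without either LSO array (highest adjusted p = 0.097). Fxyd1, Fxyd5 and Fxyd6 had no overlap between ages, whereas LSO at P14 (8.71) met MNTB at P3 (8.70) for Fxyd7.

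Partners of the calcium pumps were tested in 4 cases, and 3 were higher and 1 lower, with a median of 0.42. Bsg and Nptn encode basigin and neuroplastin, glycoproteins that form part of the calcium pump complex. Bsg rose by 0.36 ± 0.08 (adjusted p = 0.0135), though not without either LSO array (highest adjusted p = 0.0595). Nptn gave 0.48 ± 0.09 (adjusted p = 0.00849) by its probe set of highest mean, but the median of its probe sets gave -0.081 (adjusted p = 0.562). Nptn was not called without either MNTB array (highest adjusted p = 0.052). The scaffold genes Slc9a3r2 and Slc9a3r1, whose products bind the tail of the pumps, went opposite ways, at 0.76 ± 0.09 (adjusted p = 0.00185) and -0.39 ± 0.08 (adjusted p = 0.00948). Slc9a3r1 was not called without either MNTB array (highest adjusted p = 0.0696).

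Calcium is also removed into internal stores and by exchange for sodium. Of 3 tested pumps of internal stores, 2 were higher and none lower, with a median of 0.21. Atp2c1, the pump of the Golgi, rose by 0.46 ± 0.10 (adjusted p = 0.0122), though not without either LSO array (highest adjusted p = 0.0692). Atp2a2, the main pump of the endoplasmic reticulum, rose by 0.21 ± 0.05 (adjusted p = 0.0266), a call lost in all 6 fits with 1 array left out. Of 6 tested sodium/calcium exchanger genes, 1 was higher, 3 lower and 2 did not pass, with a median of -0.47. Slc8a1, the exchanger NCX1, stood at 8.11 in MNTB, 8.24 in VCN and 8.41 in LSO at P14, against 9.26 in MNTB, 9.27 in VCN and 9.63 in LSO at P3. It was lower at P14 in 3 of 3 nuclei, by 1.13 ± 0.10 (adjusted p = 0.000847). Slc24a3 fell by 0.76 ± 0.10 (adjusted p = 0.00245) and Slc8a3 by 0.40 ± 0.10 (adjusted p = 0.0247). Slc8a3 lost its call without either MNTB array and without either LSO array (adjusted p up to 0.143). Slc24a2, an exchanger that also carries potassium, rose by 1.42 ± 0.31 (adjusted p = 0.0149), though not without either MNTB array (highest adjusted p = 0.0708). The exchanger gene Slc8a2 gave -0.54 and did not pass (adjusted p = 0.0635).

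**Figure D4:**
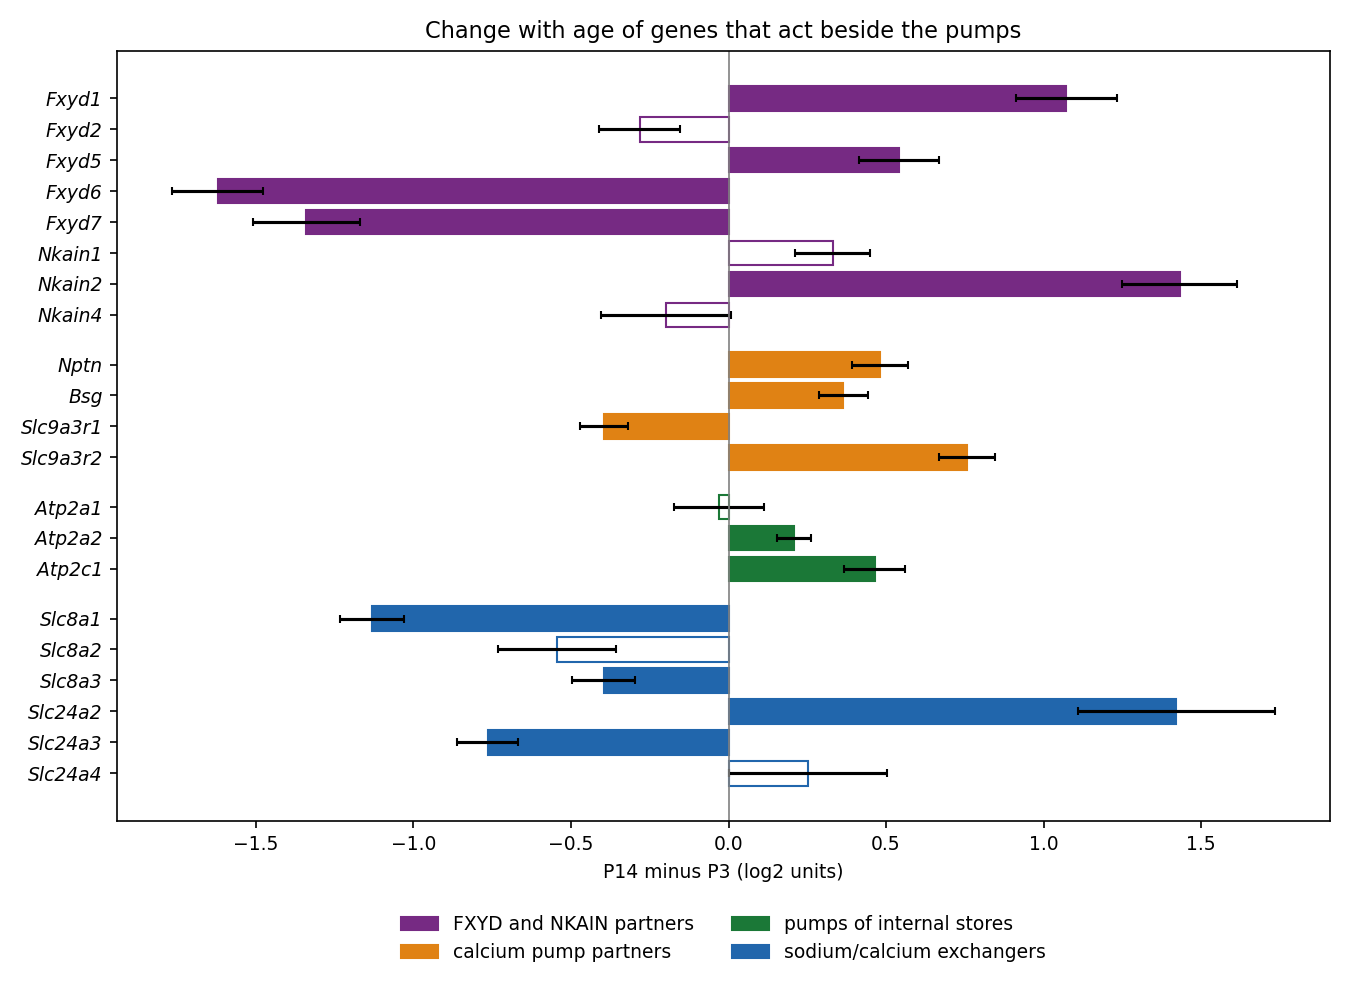
Difference P14 minus P3 in log2 units of 21 tested genes in 4 lists (colours), with bars for 1 moderated standard error. Filled bars passed the adjusted threshold and open bars did not. Fxyd6 and Fxyd7 lie at -1.62 and -1.34, Nkain2 at 1.43 and Slc8a1 at -1.13.

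Genes of other cell types changed with age on the same arrays, where 41.0% of all tested genes passed, 23.4% higher and 17.7% lower. All 7 oligodendrocyte genes with a probe set were higher at P14, and their summed level was 15.50 to 15.65 at P14 and 12.91 to 14.12 at P3. All 5 endothelial genes were higher as well, with sums of 11.59 to 11.72 at P14 and 10.71 to 11.06 at P3, and so were all 3 tested red blood cell genes, with sums of 10.82 to 11.04 at P14 and 9.70 to 9.72 at P3. Of 6 microglial genes, 4 were higher, none lower and 2 did not pass, with sums of 11.74 to 12.03 at P14 and 11.06 to 11.58 at P3. Of 4 genes of oligodendrocyte precursors, 2 were higher, 1 lower and 1 did not pass, with sums of 12.02 to 12.53 at P14 and 11.47 to 12.07 at P3. Of 8 neuronal genes, 4 were higher, 2 lower and 2 did not pass, with sums of 15.31 to 15.57 at P14 and 15.07 to 15.38 at P3. Their part in the changes of the pump genes was not tested.

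Genes with the most similar profile were named by Pearson's r over the 6 arrays, which fall into 2 ages, so that a shared change with age raises r by itself. For Atp1b1 they were Paqr4, Idh3g and Timm8a1 (r = 0.9987 to 0.9995), and for Atp1b2 they were Otud6b, Pmepa1 and Phc2 (r = 0.9988 to 0.9994). Slc25a32, Vps4b and Sys1 were nearest to Atp1b3 (r = 0.9968 to 0.9972), and Farp1, Vps26b and Tmem164 to Atp2b1 (r = 0.9977 to 0.9981). Ndufb8, a subunit gene of respiratory complex I, Mrps9 and Sgca were nearest to Atp2b2 (r = 0.9919 to 0.9933), and Etfdh, Mxra8 and Orc5 to Atp2b3 (r = 0.9975 to 0.9999). Between 125 genes for Atp2b2 and 1081 for Atp1b2 had r over 0.95, so that high values were common.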

How the data were processed

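RNA of 3 auditory nuclei at 2 ages was measured on 6 arrays. Per the labels' protocols, pooled tissue RNA was amplified with a Nugen Ovation Pico kit and put on Affymetrix mouse genome arrays. The authors deposited log2 expression per probe set made with RMA, per the submitters' processing notes. A version of RMA and any scan batch are, in the sources used here, not given. Values ran from 1.84 to 14.37. Of 45101 probe sets 34958 name 1 gene through the platform annotation, and 34754 of these matched a RefSeq table. Probe sets of several genes were left out, as were 64 control sets. Genes took the probe set of highest mean (outside the pump genes, names ending in _x_at only where no other existed). Those with a mean at or above the 40th percentile (5.57) were tested. limma 3.58.1 in R 4.3.3 fitted age and nucleus over all 6 arrays with an intensity trend, leaving 2 residual degrees of freedom with 3.95 from the prior. Tests were two-sided, with Benjamini-Hochberg adjustment. The summed level of a list is the log2 of summed unlogged values. The steps were tested on simulated data. Up to 4 genes that passed were named per list, by size, along with others chosen after their values were seen. For likeness, the 3 genes of highest r per pump gene were named. Members, lists and tests were chosen with earlier results of these data known. With so few arrays, their number sets how precise any value can be.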

Additional observations from a re-analysis of the deposited data

Results flagged for a closer look

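Several differences had opposite signs in the groups set side by side, each by at least 0.1 log2 units; with 1 array per nucleus and age, none of these contrasts between groups was tested. The P14 minus P3 difference of the dimmest Atp1b1 probe set was 0.14 in MNTB, 0 in VCN and -0.12 in LSO. The second Atp2b3 probe set gave 0.35 in MNTB, 0.39 in VCN and -0.23 in LSO.

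Differences between nuclei also turned with age, given first for the probe sets used for each gene. For Atp2b2, MNTB minus LSO was 0.14 at P14 and -0.11 at P3, and VCN minus LSO was 0.25 at P14 and -0.13 at P3. For Atp2b3, MNTB minus VCN was -0.10 at P14 and 0.27 at P3. Of the Atp2b4 values 5 of 6 lay in the range of the 3 unspiked control probe sets. The numbers of Atp2b4 are therefore listed without being read as differences in expression: MNTB minus LSO was -0.11 at P14 and 0.81 at P3. Its MNTB minus VCN difference was -0.56 at P14 and 0.93 at P3, and its VCN minus LSO difference was 0.45 at P14 and -0.12 at P3.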

How the results depend on the processing

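For the pump genes 89 alternative values of the age difference were computed. Of these, 68 were counted as keeping direction and side of the threshold. A further 17 kept the direction but no longer passed, 4 newly passed and 0 reversed. The 68 include Atp2b4 without the filter on dim probe sets, although the main fit did not test that gene. There Atp2b4 passed for age (adjusted p = 0.0134, limma), with 5 of its 6 values in the range of unspiked controls. The 89 values of each contrast of nuclei also include Atp2b4 without the filter, and none passed. Without an intensity trend 3 pump genes and 5005 genes in all passed for age. With the block of nucleus left out, so that ages were not paired, 6 pump genes and 5074 genes in all passed. The median of the probe sets turned the sign of Nptn (-0.081). Leaving age out of the model left 1 gene for MNTB minus LSO, 0 for MNTB minus VCN and 1 for VCN minus LSO.

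With 1 array left out, 2 to 5 pump genes passed for age (5 with all arrays), and 3145 to 4712 genes in all (5318). For contrasts of nuclei the ranges were 4 to 99 genes for MNTB minus LSO (21), 17 to 216 for MNTB minus VCN (78) and 4 to 159 for VCN minus LSO (48). Leaving out either array of a nucleus gives the same age difference, since that nucleus then has 1 age. Another round of quantile normalization gave 2682 genes higher and 2600 lower at P14, against 3030 and 2288 in the deposited scaling. With no repeat of any nucleus and age, neither animal variation nor an interaction of age and nucleus could be tested, and pool size cannot be told apart from age.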
